A study of Mus musculus with 8 samples.

Results

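The genes described here are 9 components of the Notch pathway in cultured lung ILC2s, the group 2 innate lymphoid cells that make type 2 cytokines in the lung. They are the ligands Dll1, Jag1 and Jag2, the receptors Notch1 and Notch2, the nuclear factor Rbpj, and the target genes Hes1, Dtx1 and Nrarp. They were chosen by their raw counts scaled per library, Yoda1 against DMSO, with earlier results on these counts known, and were taken by symbol from the 23183 genes in the count files, where all 9 were found. ILC2s of C57BL/6 mice (C57BL/6 J in the study's methods) were treated with 5 µM Yoda1, a chemical agonist of the mechanosensitive ion channel Piezo1, or with the solvent DMSO at 0.1%, and each group holds 4 samples. Per the study's methods, the mice were of both sexes, were 6 to 10 weeks old and had received IL-33, the lung cells were enriched for ILCs and cultured with IL-2, IL-7 and IL-33 (10 ng/mL each), and the exposure lasted 3 h. All samples of both groups therefore came from wild-type cells kept in the same activating cytokines, and no sample without Piezo1 or without these cytokines was analysed here. No source used here says if the samples within a group are separate mice or cultures, so p-values measure only the spread between these samples, which may be technical.

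Notch is a receptor system that works between touching cells. A ligand of the Delta or Jagged type on 1 cell binds a Notch receptor on its neighbour, the receptor is cut by ADAM proteases and then by gamma-secretase, and the released intracellular domain moves to the nucleus, binds RBPJ and turns RBPJ from a repressor into an activator. Hes1, Nrarp and Dtx1 are classical genes switched on by this complex, and HES1 is itself a repressor, NRARP limits the activity of the intracellular domain, and DTX1 is a ubiquitin ligase that acts on receptor trafficking. In lymphocytes, the pathway is best known for committing progenitors to the T cell lineage, and it also takes part in the development and plasticity of ILCs.

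Total counts per library ran from 12438009 to 19534653. Defining genes of ILC2s were counted in every library. Il1rl1 was at a mean of 1598 CPM (a gene's count relative to the TMM-scaled library total) and Gata3 at 564.9 CPM. The highest were Il13 (6049 CPM), Il2ra (3646 CPM) and Il5 (3505 CPM), and the lowest were Klrg1 (70.6 CPM) and Il17rb (14.2 CPM). The 11 genes of the ILC2 list summed to between 16583 and 17129 CPM with DMSO and between 18606 and 18978 CPM with Yoda1, and 4 of them, Il13, Il5, Il1rl1 and Thy1, were called higher, beside 6.04% of all genes tested. With library size only or upper-quartile factors 2 were called, since Il1rl1 (edgeR adjusted p = 0.0503 and 0.0761) and Thy1 (0.108 and 0.156) were not, and 2 to 4 were called when each library was left out, with 2 without Yoda1 replicate 1 and without Yoda1 replicate 2. Of 5 endothelial genes, Cdh5, Tek and Cldn5 had at most 3 counts in any library, Kdr had 0 to 8 counts, and Pecam1 was at 219.7 CPM, so that the list summed to between 211.8 and 225.9 CPM. Of 5 fibroblast genes, Col3a1 had no count in any library and the list summed to between 0.323 and 0.767 CPM. Of 5 epithelial genes, Sftpc had no count in any library, Cdh1 had 32 to 63, Epcam 16 to 33 and Krt18 15 to 32, and the list summed to between 4.87 and 6.95 CPM.

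The macrophage or dendritic cell list summed to between 26.6 and 28.5 CPM with DMSO and between 32.7 and 38.1 CPM with Yoda1. Most of this sum was Xcr1, which rose (log2 fold change 0.63 ± 0.071, standard error, edgeR adjusted p = 2.07e-07). Itgax had 81 to 152 counts per library, Cd68 29 to 62, Adgre1 5 to 15 and Flt3 1 to 8. Csf1r and Lyz2 had at most 3 counts in any library. Of the other lists, T cell genes summed to between 69.6 and 85.5 CPM, B cell genes to between 5.32 and 7.20 CPM, mast cell or basophil genes to between 3.55 and 5.48 CPM and ILC3 genes to between 4.42 and 7.10 CPM, with the ranges of the groups overlapping in each. In bulk samples like these, fewer cells of a type and less RNA per cell cannot be told apart. The part that any of these cells had in the results below was not tested.

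The receptors and Rbpj were abundant, and the ligands and targets were at low levels. To set levels of different genes side by side, CPM were divided by the length of the principal transcript in kilobases. On this scale the order in DMSO libraries was Rbpj at 262.5 ± 8.56 CPM per kb (SD, n = 4), Notch2 at 86.4 ± 9.50, Notch1 at 21.5 ± 1.91, Jag1 at 2.78 ± 0.221, Nrarp at 2.61 ± 0.188, Hes1 at 2.57 ± 0.286, Jag2 at 0.553 ± 0.100, Dll1 at 0.312 ± 0.0560 and Dtx1 at 0.0514 ± 0.00990. The ranges of the 4 libraries overlapped between Jag1 and Nrarp and between Nrarp and Hes1, so these neighbours did not differ beyond their spread, whereas the other neighbours did not overlap. Rbpj stood at the 99.6th percentile of CPM among the 12239 genes tested, Notch2 at the 98.9th and Notch1 at the 91.8th. Jag1 stood at the 37.9th percentile, Nrarp at the 22.4th, Hes1 at the 16.6th, Jag2 at the 13.5th and Dll1 at the 2.17th.

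With Yoda1 the order was the same except that Hes1, at 2.88 ± 0.476 CPM per kb, was listed before Nrarp, at 2.59 ± 0.254, and their ranges overlapped. Dll1 was at 0.127 ± 0.0215 CPM per kb with Yoda1, and its range then overlapped that of Dtx1. The lengths used were 5440 bases for Rbpj, 10500 for Notch2, 9488 for Notch1, 5612 for Jag1, 5106 for Jag2, 3581 for Dll1, 1468 for Hes1, 2582 for Nrarp and 4035 for Dtx1. With the length of all annotated exons of a gene in place of the principal transcript, Rbpj was 1.33 times Notch2 in DMSO libraries instead of 3.04 times, and the order in DMSO libraries was the same.

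**Figure D1:**
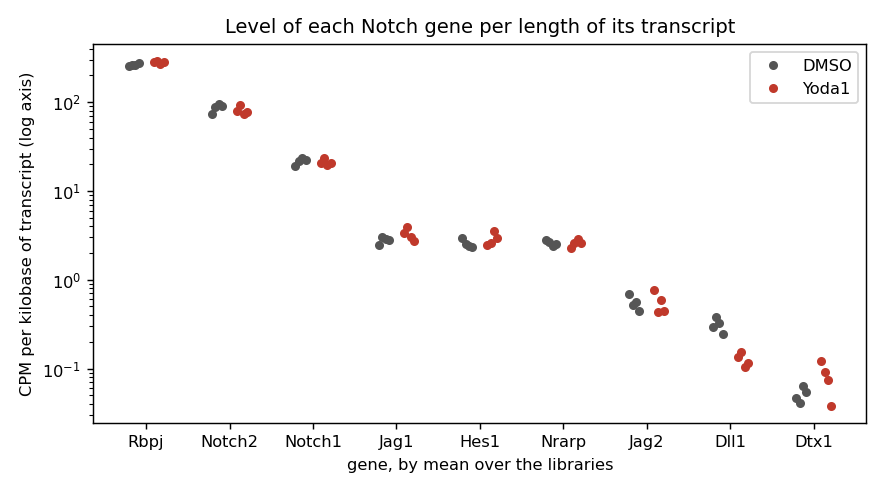
Level of each Notch gene in CPM per kilobase of its principal transcript (log axis), with a point for each of the 4 DMSO and 4 Yoda1 libraries. Rbpj, Notch2 and Notch1 lie above all other members, Jag1, Hes1 and Nrarp lie close together, and Jag2, Dll1 and Dtx1 lie lowest.

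Of the 9 genes, Rbpj and Dll1 were called between Yoda1 and DMSO. Dll1, a ligand, was 2.46-fold lower with Yoda1 on few counts, and Rbpj was 1.08-fold higher on many. The calls come from edgeR's quasi-likelihood test fitted over all 12239 genes with enough counts, at a Benjamini-Hochberg adjusted p of 0.05. Of the 9 genes, 8 entered the fit and Dtx1 did not. Among these 8, 1 was called higher (Rbpj), against 6.04% of all genes tested, and 1 was called lower (Dll1), against 4.84% of all genes tested, or 10.9% in both directions. The median log2 fold change of the 8 was -0.012, beside -0.0053 over all genes tested. The genes were listed with this contrast already known, so their fold changes are a description, and no p-value is given for them.

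**Figure D2:**
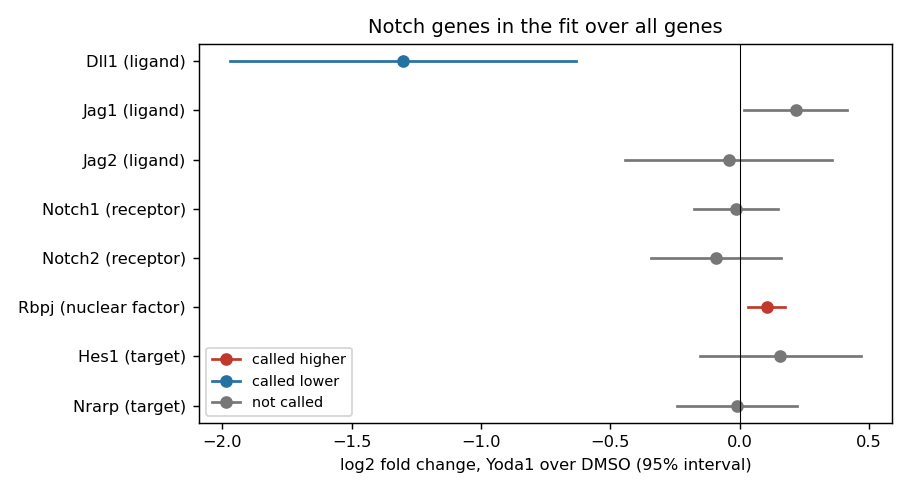
Log2 fold change of Yoda1 over DMSO for the 8 Notch genes in the fit, with bars for the 95% interval. Dll1 lies lowest, at -1.30, and Jag1 highest, at 0.22, with Rbpj at 0.11. The genes were listed with this contrast known, so the intervals are a description and are not read as a test against 0.

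Dll1 encodes Delta-like 1, a ligand that activates Notch receptors on neighbouring cells. In GRCm38 the gene spans bases 15367354 to 15376872 of chromosome 17, minus strand, with 11 exons in its principal transcript. It was counted 17, 25, 18 and 12 times in DMSO replicates 1 to 4 and 6, 9, 5 and 8 times in Yoda1 replicates 1 to 4. In scaled values these were 1.06, 1.37, 1.15 and 0.887 CPM with DMSO and 0.484, 0.548, 0.375 and 0.411 CPM with Yoda1. Every Yoda1 library lay below every DMSO library, an arrangement that 7.05% of all genes tested showed in this direction and 15.5% in either direction, and of the 8 members Dll1 alone showed it. The means were 1.12 ± 0.200 and 0.455 ± 0.0770 CPM (SD, n = 4 each), so the log2 fold change was -1.30 with a standard error of 0.33 and a 95% interval from -1.97 to -0.63.

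The counts behind Dll1 are few. The 4 DMSO libraries held 72 counts together and the 4 Yoda1 libraries 28, which scaled for depth is a ratio of 0.400, with an exact 95% interval from 0.249 to 0.627 that covers counting error only. The spread between libraries was 17.9% of the mean with DMSO and 16.9% with Yoda1, below the 23.6% and 37.8% that counting alone gives at these depths. Dll1 passed the count filter through the DMSO libraries alone, where it was counted 12 to 25 times against 5 to 9 with Yoda1, so its call and the refits of the same counts are no support for the difference. Dll1 was not tested when at least 10 counts were required in every library, and DESeq2 gave it no adjusted p (log2 fold change -1.30). Over the alternative fits that included it the log2 fold change ran from -1.41 to -1.18, the smallest without DMSO replicate 2. Exons of the opposite-strand gene A930024N18Rik overlap Dll1, and no source used here states whether reads were assigned by strand.

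The stretch before the more upstream of the RefSeq starts of Dll1 is shown because Dll1 is the member whose groups did not overlap. It spans chr17:15376933-15377182 of GRCm38.p6 on the minus strand and is printed 5′ to 3′, in lower case throughout since it held none of the motifs searched. It lies upstream of the annotated exons of Dll1 and overlaps exons of A930024N18Rik.
Dll1: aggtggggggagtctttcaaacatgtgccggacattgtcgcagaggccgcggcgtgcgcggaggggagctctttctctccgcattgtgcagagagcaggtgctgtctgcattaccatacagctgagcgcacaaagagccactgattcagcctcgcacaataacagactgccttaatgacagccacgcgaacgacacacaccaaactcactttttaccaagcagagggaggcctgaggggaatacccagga
The window searched runs from 250 bases before to 50 bases after each RefSeq start, on both strands. The motifs were TGGGAA, the core bound by RBPJ, with its longer form GTGGGAA, which contains it, and GCGGGGG for EGR factors, AAGGTCA for NR4A receptors and TGACGTC for CREB-type factors. Of all 32851 windows, 25.6% held TGGGAA, 6.38% GTGGGAA, 10.8% GCGGGGG, 4.72% AAGGTCA and 3.21% TGACGTC. Windows were found for 8 of the 9 members (all but Hes1), and in these a match was found for 1 member alone, Rbpj, with TGGGAA.

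Rbpj encodes the DNA-binding factor through which all Notch receptors act. It lies at bases 53466152 to 53657362 of chromosome 5 (plus strand), with 11 exons in its principal transcript. Its values were 1377, 1436, 1411 and 1488 CPM in DMSO replicates 1 to 4 and 1549, 1575, 1478 and 1543 CPM in Yoda1 replicates 1 to 4, from 19183 to 29999 counts per library. DMSO replicate 4 lay above Yoda1 replicate 3, so the groups overlapped by that pair of libraries, while all 4 Yoda1 libraries lay above the DMSO mean. The means were 1428 ± 46.6 and 1536 ± 41.4 CPM (SD, n = 4 each), so the log2 fold change was 0.11 with a standard error of 0.035.

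The call of Rbpj was held in 6 of 15 alternative fits and lost in 9, with log2 fold changes from 0.075 to 0.13 over all 15. The losses included the fits with library size only (0.084) and with upper-quartile factors (0.075), and those without DMSO replicate 1 (0.088), DMSO replicate 2 (0.11), DMSO replicate 3 (0.10), Yoda1 replicate 1 (0.10), Yoda1 replicate 2 (0.093) and Yoda1 replicate 4 (0.10). The scaling factors were all above 1 in DMSO libraries (1.003 to 1.010) and all below 1 in Yoda1 libraries (0.988 to 0.997).

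The matches to the RBPJ core near an Rbpj start are shown because Rbpj is both the factor and the member called higher, with the matched letters in capitals and 12 bases on either side. The first lies at chr5:53590185-53590214 and the second, in which the match reads on the other strand, at chr5:53590269-53590298 (GRCm38.p6, plus strand as printed).
Rbpj first match: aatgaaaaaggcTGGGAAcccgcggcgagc
Rbpj second match: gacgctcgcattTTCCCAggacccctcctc
The matched letters begin 149 and 65 bases before the more upstream of the 2 RefSeq starts in this region, in a stretch that also holds annotated exon sequence of Rbpj. A match of 6 letters is a description of the sequence and not a bound site.

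Jag1 and Jag2 encode the Jagged ligands. Jag1, at bases 137081456 to 137116644 of chromosome 2 (minus strand), was the most counted ligand. It was at 13.9, 16.8, 16.0 and 15.7 CPM in DMSO replicates 1 to 4 and at 19.0, 22.0, 16.8 and 15.2 CPM in Yoda1 replicates 1 to 4. Yoda1 replicates 1 and 2 lay above every DMSO library and Yoda1 replicate 4 lay within the DMSO range, so the groups overlapped. The means were 15.6 ± 1.24 and 18.2 ± 2.97 CPM (SD, n = 4 each). The log2 fold change was 0.22 with a standard error of 0.097 and a 95% interval from 0.016 to 0.42, and Jag1 was not called. Without Yoda1 replicate 4 the log2 fold change was 0.31 and Jag1 was called, and over all 15 alternative fits it ran from 0.10 to 0.31.

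Jag2, at bases 112907819 to 112929776 of chromosome 12 (minus strand), was at 3.51, 2.63, 2.88 and 2.29 CPM in DMSO replicates 1 to 4 and at 3.87, 2.19, 2.999 and 2.26 CPM in Yoda1 replicates 1 to 4, from 31 to 56 counts. The lowest and the highest of the 8 libraries were both Yoda1 libraries. Its log2 fold change was -0.042 with a 95% interval from -0.44 to 0.36, so no difference was detectable at this depth and spread. Jag1 exceeded Jag2 in every library, by 3.61 to 9.15 times per kb.

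The receptors varied alike from library to library, and neither was called between the groups. Notch1, at bases 26457903 to 26516663 of chromosome 2 (minus strand), was at 179.1, 203.9, 222.3 and 209.6 CPM in DMSO replicates 1 to 4 and at 196.2, 224.5, 186.9 and 198.3 CPM in Yoda1 replicates 1 to 4. Notch2, at bases 98013527 to 98150361 of chromosome 3 (plus strand), was at 763.6, 924.7, 994.0 and 944.5 CPM in DMSO replicates 1 to 4 and at 843.9, 971.9, 771.5 and 818.8 CPM in Yoda1 replicates 1 to 4. Both receptors were lowest among DMSO libraries in replicate 1 and highest in replicate 3, and among Yoda1 libraries both were lowest in replicate 3 and highest in replicate 2. The groups overlapped for both.

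The log2 fold change was -0.014 for Notch1 (standard error 0.072, 95% interval -0.18 to 0.15) and -0.090 for Notch2 (standard error 0.10, 95% interval -0.34 to 0.16), and neither was called in any of the 15 alternative fits. For both, the spread between libraries was far above counting error. It was 8.91% of the mean for Notch1 and 11.0% for Notch2 with DMSO, where counting alone gives 1.76% and 0.835%. The ratio of the receptors within a library varied much less. Notch2 exceeded Notch1 by 4.02 ± 0.111 times per kb with DMSO and by 3.81 ± 0.0982 times with Yoda1 (SD, n = 4 each), with 3.73 as the lowest and 4.10 as the highest of the 8 libraries. The size of this ratio depends on the length used. With all annotated exons, the group mean of Notch2 was 5.87 times that of Notch1 with DMSO and 5.58 times with Yoda1.

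In the libraries at the extremes for Notch2 in each group, the median of other genes with long exon sequence lay on the same side as the receptors. Over 1143 other genes with at least 10000 bases in all annotated exons together, the median log2 CPM relative to each gene's mean over the 8 libraries was -0.075 in DMSO replicate 1 and -0.058 in Yoda1 replicate 3, the libraries lowest for Notch2, and 0.046 in DMSO replicate 3 and 0.059 in Yoda1 replicate 2, the libraries highest for it in each group. On the same scale Notch2 was at -0.20, -0.18, 0.18 and 0.15 in these libraries and Notch1 at -0.17, -0.11, 0.14 and 0.15. The member Rbpj, with 12750 bases in all annotated exons, was at -0.10, -0.0027, -0.069 and 0.089. It thus lay on the other side in DMSO replicate 3. The other libraries did not all follow, since the long genes were at -0.0015 in DMSO replicate 2 and 0.013 in Yoda1 replicate 1, where Notch2 was at 0.080 and -0.052 and Notch1 at 0.013 and -0.042. In DMSO replicate 4 and Yoda1 replicate 4 they again lay on the same side. The long genes were at 0.036 and -0.0079, Notch2 at 0.11 and -0.096 and Notch1 at 0.053 and -0.027. Over all genes tested the median stayed between 0.00025 and 0.0089. The part of exon length in the spread of the receptors was not tested. Exons of 0610009E02Rik and Gm13568 on the opposite strand overlap Notch1, and exons of Gm42820 on the same strand overlap Notch2.

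**Figure D3:**
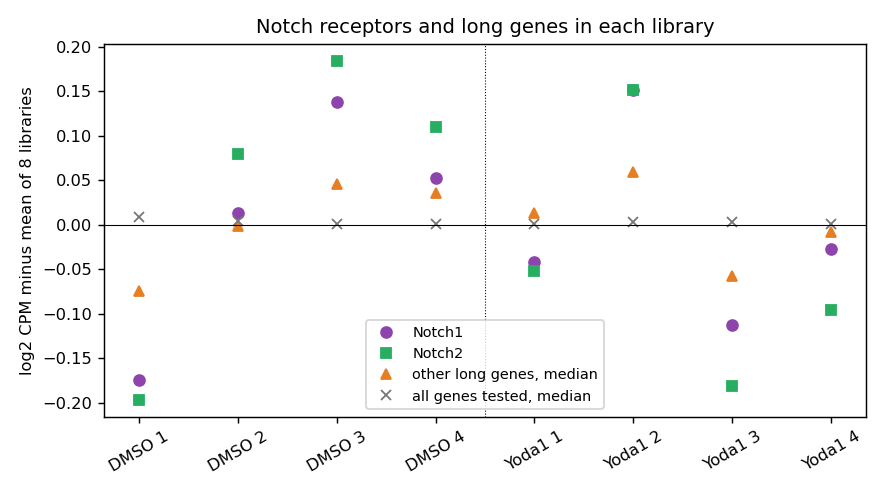
Log2 CPM of Notch1 and Notch2 in each library minus the gene's mean over the 8 libraries, with the median of the same value over 1143 other genes with at least 10000 bases in all annotated exons and over all 12239 genes tested. DMSO replicate 1 and Yoda1 replicate 3 lie low, and DMSO replicate 3 and Yoda1 replicate 2 lie high, for both receptors and for the long genes.

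The targets gave no called change. Hes1, which encodes a transcriptional repressor of the basic helix-loop-helix type, lies at bases 30064384 to 30067796 of chromosome 16 (plus strand). It was counted 70, 68, 55 and 47 times in DMSO replicates 1 to 4 and 45, 62, 69 and 84 times in Yoda1 replicates 1 to 4. In scaled values these were 4.38, 3.72, 3.52 and 3.47 CPM with DMSO and 3.63, 3.77, 5.17 and 4.32 CPM with Yoda1, and the groups overlapped. The log2 fold change was 0.16 (standard error 0.15), with a 95% interval from -0.15 to 0.47.

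Nrarp, at bases 25180758 to 25183339 of chromosome 2 (plus strand), has 1 exon. It was at 7.32, 6.90, 6.20 and 6.504 CPM in DMSO replicates 1 to 4 and at 5.89, 6.70, 7.498 and 6.69 CPM in Yoda1 replicates 1 to 4, from 73 to 130 counts. Its means of 6.73 ± 0.487 and 6.69 ± 0.655 CPM (SD, n = 4 each) gave a log2 fold change of -0.0090, with a 95% interval from -0.24 to 0.22. For both targets Yoda1 replicate 3 was the highest of the 8 libraries, the library in which the Notch2 level was lowest among the 4 Yoda1 libraries. The long genes described above were low in it too, at -0.058. Any link between these levels was not tested. Exons of the opposite-strand gene Gm38287 overlap Nrarp.

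Dtx1, at bases 120680202 to 120711927 of chromosome 5 (minus strand), was near the counting floor of 3 counts per library. It was counted 3, 3, 4 and 3 times in DMSO replicates 1 to 4 and 6, 6, 4 and 3 times in Yoda1 replicates 1 to 4. The group sums of 13 and 19 counts gave a depth-scaled ratio of 1.505, with an exact 95% interval from 0.705 to 3.31 that covers counting error only, so no difference was detectable at this depth.

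**Figure D4:**
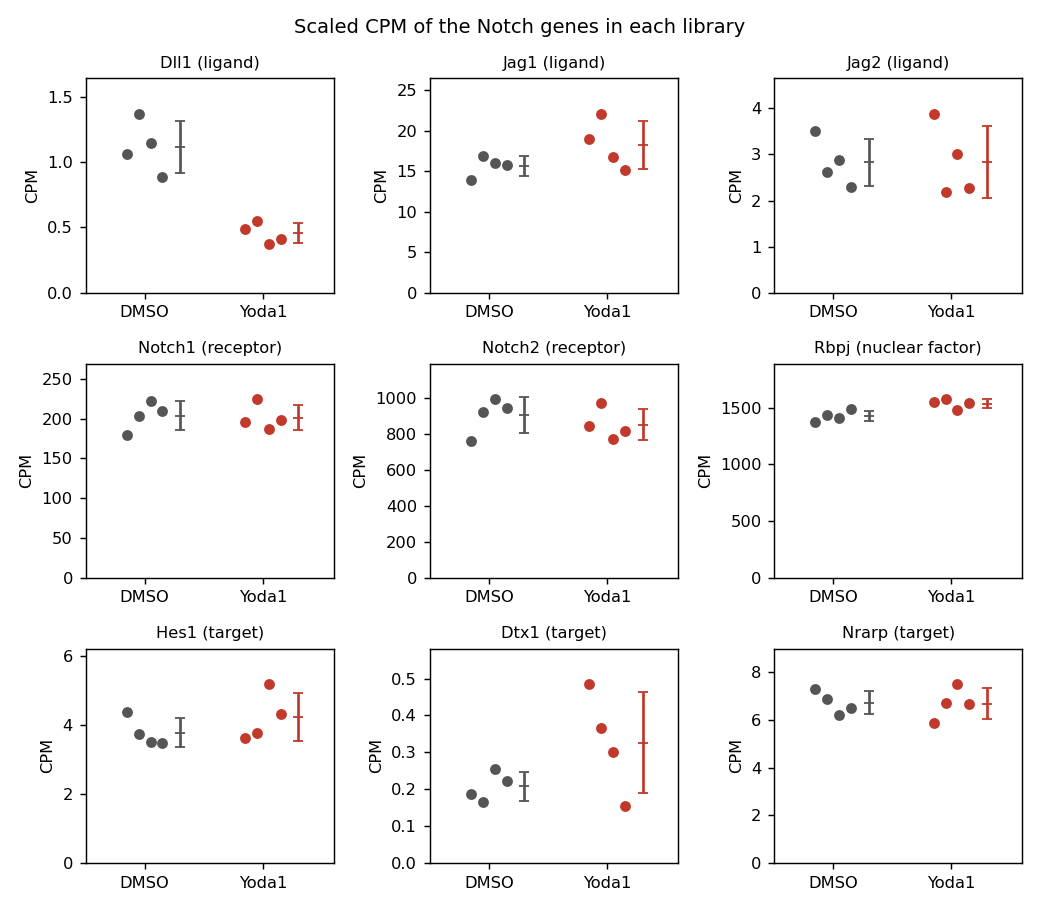
Scaled CPM of the 9 Notch genes, with a point for each of the 4 DMSO and 4 Yoda1 libraries in replicate order and a bar beside them for the mean and SD of each group (each axis starts at 0). The groups are apart for Dll1, overlap by 1 pair of libraries for Rbpj, and overlap for the other members.

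The rest of the pathway was read from 69 other genes, listed by role. They were not picked by how they moved, but earlier results of these data were known. The shares and p-values below therefore describe these genes and are no independent test. Of these, 59 entered the fit over all genes, and 5 rose and 4 fell at an adjusted p of 0.05, which is 15.3% of those tested beside 10.9% of all genes tested. Their median log2 fold change was -0.014. For 13 of the 59 the groups did not overlap, which is 22.0% beside 15.5% of all genes tested. Each role holds few genes, so the number called in a role is not read as a result about that role.

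The other ligands Dll3, Dll4, Dlk1 and Dlk2 were not tested, since each had at most 8 counts in any library. Both other receptors were tested and 0 were called by edgeR, DESeq2 or limma-voom, nor had either an unadjusted edgeR p under 0.05. DESeq2 gave Notch4 no adjusted p, so it could not have called that gene. Notch3 was at 4.71 ± 0.298 and 4.27 ± 0.523 CPM (SD, n = 4 each), with a log2 fold change of -0.15, and Notch4 had 6 to 19 counts per library. Of the 3 tested genes for ligand endocytosis 0 were called by edgeR, DESeq2 or limma-voom, and 1 had an unadjusted edgeR p under 0.05 (Neurl1b, log2 fold change -0.42). Mib1, the ubiquitin ligase that lets ligands pull on receptors, was the most abundant, at 61.6 ± 7.66 and 62.5 ± 6.64 CPM.

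Receptor processing held 3 of the called genes. Adam10, which encodes the protease that makes the first ligand-dependent cut in Notch receptors, rose from 182.5 ± 6.59 to 202.6 ± 7.78 CPM (SD, n = 4 each) (log2 fold change 0.15 ± 0.038, standard error, adjusted p = 0.00886 by edgeR). All 4 Yoda1 libraries lay above all 4 DMSO libraries, and Adam10 was called in all 15 alternative fits. Psenen, which encodes the PEN2 subunit of gamma-secretase, rose from 46.7 ± 3.43 to 53.2 ± 2.25 CPM (log2 fold change 0.18 ± 0.054, standard error, adjusted p = 0.0236 by edgeR). That call was lost in 7 of the 15 alternative fits, among them those without DMSO replicate 3 (adjusted p = 0.0984), DMSO replicate 4 (0.0815) and Yoda1 replicates 1 (0.0797), 3 (0.0508) and 4 (0.0696), and exons of U2af1l4 on the opposite strand overlap Psenen. The other 8 cleavage genes were not called. Among them Furin, the convertase that cuts the receptor precursor, was the most abundant, at 1904 ± 131.7 and 1797 ± 121.1 CPM, and it was called lower only without DMSO replicate 1 (log2 fold change -0.13, edgeR adjusted p = 0.0270).

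The glycosylation enzymes, which set how receptors respond to each ligand, numbered 5. Their log2 fold changes ran from -0.19 to -0.072, beside a median of -0.0053 over all genes tested. Of the 5 enzymes only Poglut1, which adds O-glucose to the receptor, fell at the threshold, from 27.6 ± 0.974 to 24.1 ± 0.709 CPM (log2 fold change -0.19 ± 0.062, standard error, adjusted p = 0.0433 by edgeR). That call was lost in 10 of the 15 alternative fits, among them 7 of the 8 that left out a library, all but the fit without DMSO replicate 3 (adjusted p from 0.0616 to 0.134 in those 7, and from 0.0180 to 0.134 over all 15). Lfng, a fringe enzyme and the most abundant of them, was at 142.2 ± 9.90 and 133.4 ± 7.88 CPM and was not called. Of the 8 genes for receptor trafficking and ubiquitin ligases and the 8 coactivators, 0 were called by edgeR, DESeq2 or limma-voom, and 2 of these 16 genes, both coactivators, had an unadjusted edgeR p under 0.05. The most abundant were Dtx3l, with a log2 fold change of -0.088, which was called without DMSO replicate 1 (-0.14, edgeR adjusted p = 0.00930), and Ep300, with one of 0.028.

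Corepressors that bind with RBPJ held 3 called genes of 15, in both directions. Spen, which encodes a scaffold that joins RBPJ to histone deacetylases, rose from 142.2 ± 11.0 to 162.4 ± 9.10 CPM (SD, n = 4 each) (log2 fold change 0.20 ± 0.049, standard error, adjusted p = 0.0112 by edgeR). The call was lost without DMSO replicate 2 (adjusted p = 0.0530), the 1 loss over 15 alternative fits, and exons of Zbtb17 on the opposite strand overlap Spen. Tle4, a Groucho-type corepressor, rose from 4.90 ± 0.740 to 6.60 ± 0.544 CPM (log2 fold change 0.43 ± 0.13, standard error, adjusted p = 0.0281 by edgeR), from 61 to 138 counts per library. Its call was lost in 5 of the 15 alternative fits, among them those without DMSO replicate 1 (adjusted p = 0.0987) and without Yoda1 replicates 1 (0.0688) and 4 (0.106). Tle3, of the same family and far more abundant, fell from 393.2 ± 19.0 to 340.9 ± 13.7 CPM (log2 fold change -0.21 ± 0.039, standard error, adjusted p = 0.000511 by edgeR), and was called in all 15.

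Among 3 genes for turnover of the intracellular domain, Cdk8, a kinase that marks it for destruction, rose from 88.4 ± 1.94 to 97.2 ± 2.64 CPM (log2 fold change 0.14 ± 0.040, standard error, adjusted p = 0.0243 by edgeR). Cdk8 alone of the 3 was called (33.3%, beside 10.9% of all genes tested), and its groups did not overlap. The call was lost in 8 of the 15 alternative fits, among them library size only, upper-quartile factors, and the fits without DMSO replicates 2 (adjusted p = 0.0799) and 3 (0.0665) and Yoda1 replicates 1 (0.0616), 3 (0.0522) and 4 (0.0942).

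Of 10 genes listed as other targets 5 were tested, and 2 of them fell. This is 40.0% of 5 genes, beside 4.84% of all genes tested called lower and 10.9% called in either direction. Ccnd1, which encodes cyclin D1, fell from 5.09 ± 0.380 to 2.88 ± 0.339 CPM (SD, n = 4 each) (log2 fold change -0.81 ± 0.15, standard error, adjusted p = 0.000362 by edgeR), with 32 to 94 counts per library. Tcf7, which encodes TCF-1, a factor that Notch switches on in T cell progenitors and that ILC2 precursors also need, fell from 7.78 ± 0.315 to 5.80 ± 0.609 CPM (log2 fold change -0.42 ± 0.11, standard error, adjusted p = 0.0134 by edgeR). For both, all 4 Yoda1 libraries lay below all 4 DMSO libraries. Ccnd1 was called in all 15 alternative fits and Tcf7 in 14, the exception being the fit without Yoda1 replicate 1 (adjusted p = 0.0559). Both genes answer to many other signals besides Notch, and exons of LTO1 on the opposite strand overlap Ccnd1. Hey1, a classical Notch target, was not called, at a log2 fold change of -0.016. Hes6, which encodes an antagonist of HES1 and is not known as a gene that Notch switches on, was not called either, at -0.10. Hes5, Hes7, Hey2 and Heyl had at most 5 counts in any library. Cdkn1a was the most abundant of the list, at 584.3 ± 2.34 and 612.7 ± 20.9 CPM, and was not called.

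**Figure D5:**
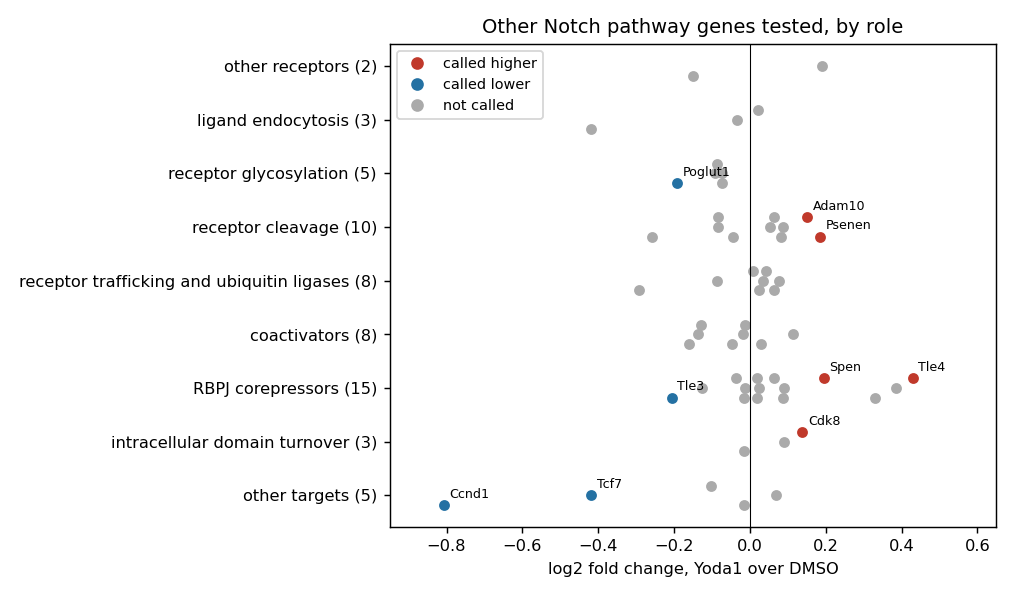
Log2 fold change of Yoda1 over DMSO for the 59 other Notch pathway genes in the fit, by role, with the number tested in parentheses and the genes called higher or lower named. The called genes lie on both sides of 0, from Ccnd1 at -0.81 to Tle4 at 0.43.

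Over the 8 libraries, the genes whose log2 CPM followed Dll1 most closely were Thrap3 (Pearson's r = 0.991), 2810021J22Rik (0.983), Unc45a (0.977), Dhx34 (0.974) and Kif3b (0.974). Those that followed Rbpj most closely were Adam10 (0.983), Adgrg2 (0.981), Akap2 (0.973), Wwtr1 (0.970) and Tacc2 (0.969). These values describe 8 points that share the difference between the groups and the depth of each library, they are the highest of 12239 genes, and Dll1 rests on 5 to 25 counts per library.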

How the data were processed

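Poly(A) RNA of 8 samples, 4 per group by their titles, was sequenced with a directional kit. The authors deposited raw whole-number counts per gene symbol. Per the study's methods, FastQC served for quality control, FASTX Trimmer and BBMap for read processing, and Cufflinks for expression. The submitters' processing notes name TopHat and mm10, and versions, annotation and strand setting are not given in the sources used here. If counting ignored strand, antisense reads would be included.

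Genes were filtered with filterByExpr (minimum count 10, minimum total 15), scaled with TMM and compared with edgeR 4.0.16 (R 4.3.3; quasi-likelihood test, robust, Benjamini-Hochberg over 12239 genes, threshold 0.05). A standard error is the absolute log2 fold change divided by the root of F. The log2 CPM of single libraries used a prior count of 2. Positions and lengths came from GENCODE M21 (GRCm38) and promoters from RefSeq (GRCm38.p6). Every pair of samples in a group differed by more than counting noise (chi-square per gene 2.01 to 6.62). At these depths 1 count was 0.0512 to 0.0804 CPM, and 3 counts were taken as the floor.

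The alternatives were DESeq2 1.42.0, limma-voom (limma 3.58.1), upper-quartile factors, library size only, no low-count filter, a minimum of 10 counts in all libraries, a replicate block and each library left out. Fits were tested on simulated counts. The study's Cuffdiff test needs aligned reads and was not used here.

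The members and lists were chosen with earlier results of these data known. Named are the members, every listed pathway gene past the threshold, the most abundant gene of each role, and the 5 genes most correlated with the member that changed most and with the most abundant member. Neurl1b, Notch4, Hes6, Hey1 and the genes listed with low counts were named after their values were seen.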

Additional observations from a re-analysis of the deposited data

Results flagged for a closer look

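Of 52 groups of 4 libraries examined (the named genes in each group), a library stood apart from the other 3 in 1, where chance gives about 1 in 20, or 2.6. Dlk1 was at 0.438 CPM in DMSO replicate 2 with the next library at 0.222 CPM, and Dlk1 had 1 to 8 counts per library.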

How the results depend on the processing

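The number of Notch members called higher was 1 and became 0 with library size only, upper-quartile factors or the replicate block, and 0 to 1 when each library was left out. The number called lower was 1 and became 0 with DESeq2, which gave Dll1 no adjusted p, and 0 with at least 10 counts in every library, where Dll1 was not tested. It stayed 1 when each library was left out, but these refits of the same counts are no support for Dll1. Of the other pathway genes, 5 were called higher, 3 with upper-quartile factors, 2 with the replicate block, and 2 to 5 when each library was left out. The 4 called lower became 2 to 7 when each library was left out. The counts gave no sign that the replicate numbers pair the samples. The correlation of same-numbered deviations ran from -0.028 to 0.071, and 1 of 4 DMSO libraries correlated best with its own number. With 4 libraries per group this cannot show that same-numbered samples share no source. With the replicate block, 548 genes were called higher and 418 lower over all genes. Rbpj, Poglut1, Psenen, Tle4, Cdk8 and the ILC2 genes Il5, Il1rl1 and Thy1 were then not called. Dll1 was called, which again is no support for its difference.

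Over all genes, 739 were called higher and 592 lower. With upper-quartile factors the split was 505 and 958, with DESeq2 the lower count was 372, and when each library was left out it ran from 367 to 677. Log2 fold changes near 0 changed sign when single libraries were left out, with ranges from -0.21 to 0.077 for Jag2, -0.071 to 0.030 for Notch1, -0.058 to 0.038 for Nrarp, -0.060 to 0.074 for Mib1 and -0.036 to 0.081 for Ep300. With upper-quartile factors, Mib1 was at -0.0085 and Ep300 at -0.0028. The cause was not tested. With exon unions as gene length, chosen after seeing the data, 7 of 9 members kept their place in the order with Yoda1. Depth limits Dll1, Dtx1 and the other ligands.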
